A study of Mus musculus with 2 samples.

Results

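The ADAM genes encode membrane proteins with a metalloprotease and a disintegrin domain. They were taken here as the protein-coding genes of mouse chromosomes 1 to 19 that carry the symbol Adam and a number in the GENCODE mouse release 21 annotation of mm10, so the secreted Adamts proteases were not members. This gave 33 of 20807 coding genes. The series addressed where the linker histone H1t lies in the genome of mouse spermatogenic cells. Its H1t library came from cells of ICR mice, an outbred stock, aged 6 weeks, with a rabbit polyclonal H1T antibody prepared in-house and chromatin fragmented by an enzyme. Its input library came from the same kind of cells with no antibody and was not analysed here. The authors' peak list of the H1t library was the only measurement, so no value below has a replicate, no test was run, and shares and medians are descriptions of 1 library.

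H1t is a linker histone of the testis that appears in spermatocytes and remains in early spermatids, and linker histones bind the nucleosome where DNA enters and leaves it. ADAM proteins fall into broad classes. Some are sheddases that cut growth factors, receptors and Notch from the cell surface, some have no active protease site and act as neural receptors, and many are made only in the testis or epididymis. In mouse sperm, ADAM1 and ADAM2 form the fertilin pair, and ADAM3 is needed for sperm to pass into the oviduct and bind the egg coat. The spermatogenic cells hold many stages in one sample, and a peak list gives no RNA level, so neither the labelled cell type nor the expression of any member could be checked.

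The members were split by gene structure, since the testis members include many genes copied through RNA. A member was called single-exon where its longest coding sequence lay in 1 exon, which held for 15. Of the remaining 18 multi-exon members, 11 spanned at least 50 kb and were called long, and 7 were shorter. Adam17 at 50.1 kb and Adam2 at 50.4 kb lay just above that length and Adam28 at 49.8 kb just below. The 33 members lay on 10 chromosomes, 13 of them on chromosome 8, where 8 of the 15 single-exon members also lay. Gene length ran from 2.5 kb for Adam4 to 348.9 kb for Adam12, with a median of 26.9 kb.

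The upstream DNA of a sheddase with an H1t peak at its start, of a sheddase with none and of a testis member with none is shown for comparison. Each is the 250 bases before the RefSeq start in GRCm38.p6, written 5′ to 3′ on the strand of the gene, with CG pairs in capitals. Adam17 lies on the minus strand at chr12:21373633-21373882, Adam10 on the plus strand at chr9:70678732-70678981, and Adam25 on the plus strand at chr8:40751958-40752207.
Adam17: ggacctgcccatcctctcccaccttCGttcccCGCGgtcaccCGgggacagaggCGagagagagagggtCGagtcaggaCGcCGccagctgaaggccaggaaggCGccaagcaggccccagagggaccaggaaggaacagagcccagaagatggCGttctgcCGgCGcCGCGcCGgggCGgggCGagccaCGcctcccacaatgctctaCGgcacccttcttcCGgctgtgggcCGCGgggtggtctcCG
Adam10: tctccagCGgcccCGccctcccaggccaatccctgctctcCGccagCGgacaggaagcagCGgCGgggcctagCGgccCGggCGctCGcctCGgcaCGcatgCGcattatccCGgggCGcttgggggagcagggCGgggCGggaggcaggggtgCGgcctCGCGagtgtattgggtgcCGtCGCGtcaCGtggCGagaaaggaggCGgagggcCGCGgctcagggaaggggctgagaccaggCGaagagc
Adam25: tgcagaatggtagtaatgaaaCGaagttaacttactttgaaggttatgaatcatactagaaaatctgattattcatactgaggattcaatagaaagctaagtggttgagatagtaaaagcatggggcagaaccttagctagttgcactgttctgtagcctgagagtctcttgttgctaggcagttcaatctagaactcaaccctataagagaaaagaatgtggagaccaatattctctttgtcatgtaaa
All 250 bases of the Adam17 sequence lay under an H1t peak, and none of the Adam10 or Adam25 bases did. The Adam17 sequence holds 23 CG pairs and has a GC content of 70.4%. Adam10 holds 29 CG pairs at 74.0% GC, and Adam25 holds 1 at 36.8%. Of 32851 RefSeq promoter windows of this length, the median holds 6 CG pairs and 92.13% hold at least 1. So a start dense in CG pairs had a peak in one sheddase and none in the other. RefSeq promoter sequence was matched for 17 of the 33 members, too few for a statement about GC content over the family.

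Coding sequence is shown for a member with a peak in a coding exon and for a single-exon member with no peak, again with CG pairs in capitals. The Adam15 stretch is coding sequence under a peak at chr3:89343828-89343977 on the minus strand, in exon 14 of 24. The Adam24 stretch is from the middle of its coding sequence at chr8:40680561-40680710 on the plus strand. Both were read from GENCODE transcripts of mm10.
Adam15: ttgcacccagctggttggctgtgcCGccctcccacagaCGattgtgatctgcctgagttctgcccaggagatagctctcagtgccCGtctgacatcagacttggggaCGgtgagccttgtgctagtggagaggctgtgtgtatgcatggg
Adam24: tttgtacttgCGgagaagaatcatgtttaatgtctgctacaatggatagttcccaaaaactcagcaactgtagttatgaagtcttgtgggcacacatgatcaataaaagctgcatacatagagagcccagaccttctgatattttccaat
The Adam15 stretch has a GC content of 58.7% with 4 CG pairs, and the Adam24 stretch 38.7% with 1. GC content over the whole coding sequence of each member is given with the exon peaks below.

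The H1t list held 76546 peaks, 72438 of them on chromosomes 1 to 19. A peak was placed by its midpoint, as near a start (within 1 kb of the annotated 5′ end), in an exon, in an intron or in the 10 kb on either side of the gene. The score that the authors gave each peak ranged from 50 to 3100 with a median of 74.04, and is used below only to rank peaks within this list. The members held 96 different peaks. Of the 97 pairs of member and peak, 8 were in exons, 60 in introns and 29 in flanks, since 1 peak lay in the flanks of both Adam18 and Adam3. Member peaks scored between 50.21 and 334.16 with a median of 70.09, against 73.82 for all peaks of chromosomes 1 to 19, and 47 reached the median of the list. Peak density, counted as midpoints per 100 kb of gene body and flanks, had a median of 4.16 over the members and 2.60 over all coding genes. The member median is the value of Adam39, a short gene with 1 flank peak.

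**Figure D1:**
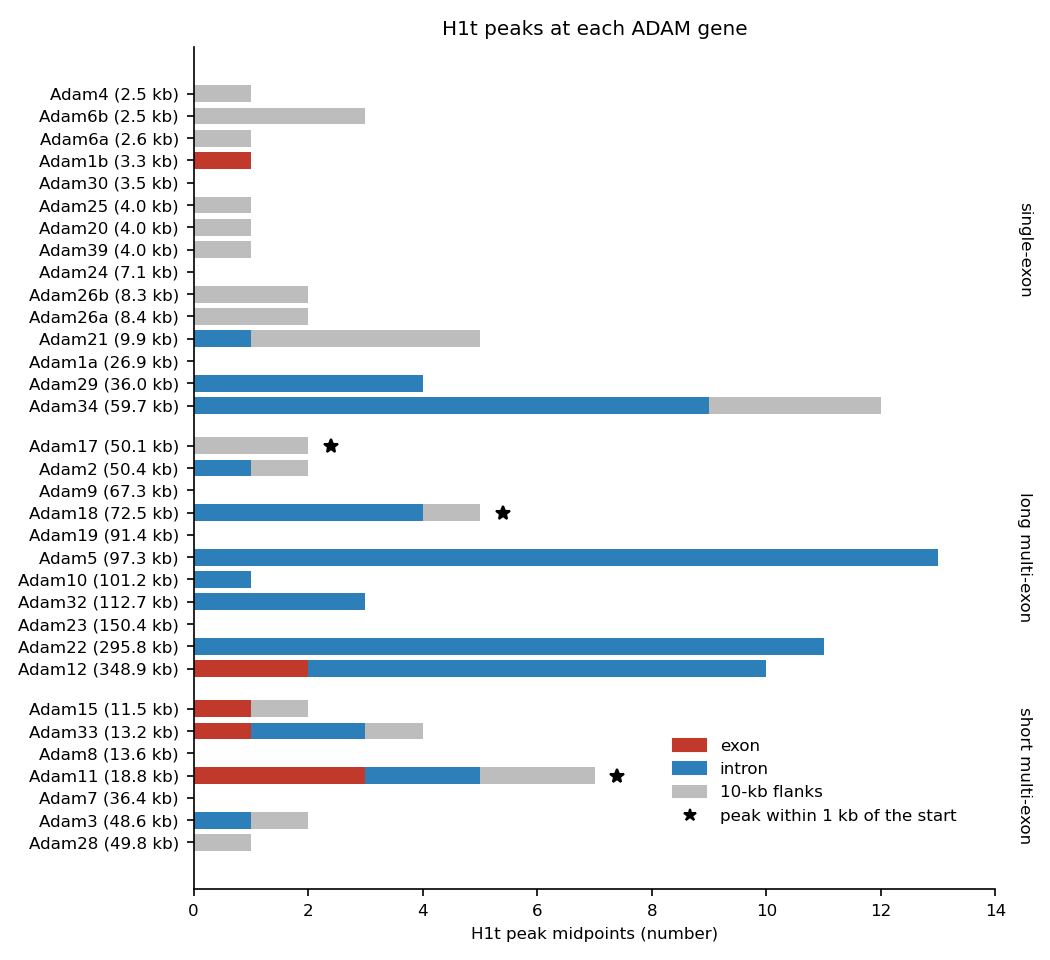
Number of H1t peak midpoints (horizontal axis) at each of the 33 ADAM genes (vertical axis, gene length in brackets), split into exon, intron and 10-kb flanks and ordered by length within each structure class. Adam5 has 13 peaks, all in introns, most of the short single-exon genes have flank peaks alone, and stars mark the 3 genes with a peak within 1 kb of the start.

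Few members had a peak at the start. Such a peak was found at 3 of 33 members (9.09%), against 24.2% of all coding genes. The 3 members were Adam11, Adam17 and Adam18, and all their start peaks scored below the median of the list. None of the 15 single-exon members had one, against 15.3% of 3219 single-exon coding genes. Olfactory, vomeronasal and trace amine receptor genes made up 40.7% of those genes, and without them 25.2% of 1909 single-exon genes had a start peak. Of the 15 single-exon members, 12 were in the lowest of 5 classes of coding GC content, described below. In that class 3.23% of 1208 single-exon coding genes had a start peak. The next classes up held 1 and 2 of the 15, and the shares of single-exon coding genes there were 5.58% and 11.3%. Among long members 2 of 11 (18.2%) had one, against 35.0% of 4725 long multi-exon coding genes.

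Adam11 encodes a neural member without protease activity. It had a peak of score 57.19 with its midpoint 134 bp upstream of the start and a further peak of score 66.72 at 713 bp downstream, in exon 2 of 26. Adam17 encodes the sheddase that releases tumour necrosis factor. Its peak, at chr12:21373601-21374179, had its midpoint 258 bp upstream and a score of 56.12, and covers the sequence printed above. Adam18 encodes a sperm surface member, and its peak at chr8:24674495-24675049 had its midpoint 17 bp upstream and a score of 52.25. The nearest annotated 5′ end of another coding gene was 44005 bp away for Adam17, 58261 bp for Adam11 and 51097 bp for Adam18. None of these peaks therefore lay at the annotated 5′ end of a neighbouring coding gene. Non-coding genes and other transcript starts of neighbours were not examined. Counted from any annotated transcript start instead, 6 of 33 members had a peak, against 31.6% of all coding genes, and Adam12, Adam15 and Adam33 were added. The Adam12 peak at chr7:134224497-134225663 scored 149.33, and its midpoint lay 17 bp inside the main transcript but 7066 bp from the annotated 5′ end of the gene.

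Exon peaks were found in 5 of 33 members (15.2%), against 28.8% of all coding genes. They were Adam11 with 3 peaks, Adam12 with 2, and Adam15, Adam33 and Adam1b with 1 each. Besides the peak in exon 2, Adam11 had a peak of score 70.43 in exon 15 and one of score 54.41 in the last exon, outside the coding sequence. Adam15, a sheddase of many tissues, had its exon peak at chr3:89343337-89344220 with a score of 88.33, and 594 of the bases under it are coding with a GC content of 60.4%. Adam33, a sheddase known from airway muscle, had its exon peak at chr2:131053535-131054195 with a score of 79.83, in an annotated exon outside those of the main transcript. Adam12, the sheddase meltrin alpha of muscle and placenta, had a peak of score 63.27 in exon 21 of 23 beside the one at its main transcript start. Of the 8 exon peaks, 5 had their midpoint in coding sequence.

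Coding GC content differed between the members with and without exon peaks. The coding genes of chromosomes 1 to 19 were ordered by coding GC content and cut into 5 equal classes. In the lowest class, up to 45.7% GC, 0 of 18 members had an exon peak, against 7.71% of all coding genes of that class. Of these 18, 12 were single-exon members, and 2.815% of the single-exon coding genes had an exon peak in this class. In the classes above it the counts were 0 of 5 members against 14.6% of coding genes, 1 of 4 against 23.8%, 1 of 3 against 38.5%, and 3 of 3 against 59.1%. The largest number of members therefore fell in the class where exon peaks were least frequent among all genes. Median coding GC content was 43.1% for single-exon members, 47.0% for long members and 56.3% for short multi-exon members, against 52.2% for all coding genes. Members with exon peaks had 52.15% (Adam1b), 55.5% (Adam12), 59.8% (Adam15), 60.4% (Adam11) and 60.8% (Adam33). Of the 28 members without one, 4 had a higher coding GC content than Adam1b, namely Adam1a at 52.7%, Adam23 at 52.5%, Adam8 at 56.3% and Adam19 at 57.4%. Whether GC content has a part in the low share of members with exon peaks was not tested.

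**Figure D2:**
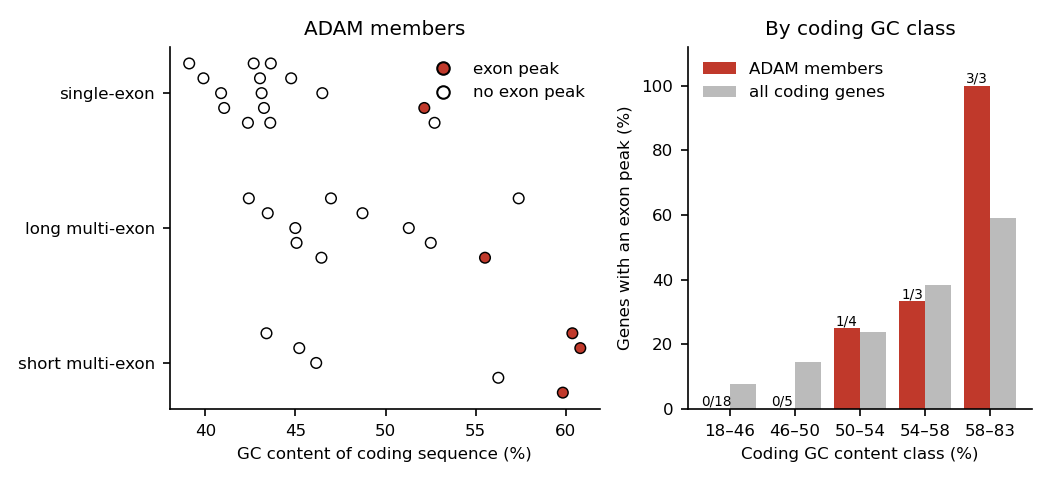
Left, GC content of the coding sequence (horizontal axis, percent) of each ADAM gene by structure class, with filled points for genes with an H1t peak midpoint in an exon. Right, percent of genes with an exon peak (vertical axis) in 5 equal classes of coding GC content, with ADAM genes in red, their counts printed above, and all coding genes in grey. No ADAM gene of the lowest 2 classes has an exon peak, and all 3 of the highest class do.

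Adam1b, a single-exon gene for a fertilin subunit, had the exon peak with the lowest score, 50.37, at chr5:121501639-121502213, which also lies in the overlapping gene Tmem116. All 575 bases under it are coding, and it covered 17.2% of the gene, the largest covered share in the family. Its neighbour Adam1a, for the other form of the same subunit, had no peak in its body or flanks. The coding sequences share 82.0% of their bases. Under the Adam1b peak the identity is 93.9%, and elsewhere it is 77.9%. The longest stretch with no difference runs for 1082 bases, the next for 82 bases, and the peak midpoint and 390 bases of the peak lie inside the longest. Part of it is printed here on the minus strand, from Adam1b at chr5:121501852-121502001 and from Adam1a at chr5:121520004-121520153, with capitals reserved for bases that differ.
Adam1b: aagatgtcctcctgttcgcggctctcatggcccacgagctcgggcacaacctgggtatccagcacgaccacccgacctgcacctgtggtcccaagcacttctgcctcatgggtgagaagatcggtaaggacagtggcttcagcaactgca
Adam1a: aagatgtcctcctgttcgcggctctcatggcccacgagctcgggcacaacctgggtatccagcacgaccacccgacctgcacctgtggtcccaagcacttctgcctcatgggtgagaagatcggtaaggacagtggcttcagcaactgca
The sequences have no differing base, so a read from this stretch could come from either gene. How reads with several matching positions were treated is not given in the sources used here, and the peak cannot be placed on Adam1b rather than Adam1a from this list.

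Peaks within the gene bodies were found in 15 of 33 members (45.5%), against 48.9% of all coding genes, and in introns in 13 of 33 (39.4%), against 32.1%. Body and flanks together held a peak for 25 of 33 (75.8%), against 69.9%. These shares lay near those of all coding genes. The 68 body peaks were spread unevenly, and 48 of them (70.6%) lay in Adam5, Adam22, Adam12, Adam34 and Adam11. At the other end, 16 of 33 members held at most 1 peak in body and flanks, and 57.5% of all coding genes did.

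The single-exon members are mostly testis genes without introns in their coding sequence. They had peaks in their flanks more often than in their bodies, at 10 (66.7%) and 4 (26.7%) of 15 genes. Over all single-exon coding genes the order was the same, at 42.7% and 22.8%. A body peak was present in 4 of 15, against 22.8% of 3219 single-exon coding genes and 35.7% of the 1909 that are not receptor genes. Body or flanks held a peak for 12 of 15 (80.0%), against 54.9% of single-exon coding genes and 61.3% without the receptor genes. Their median density was 4.43 peaks per 100 kb, against 3.25 for single-exon coding genes and 3.91 without the receptor genes. That median is the value of Adam6a, which had 1 peak, in a flank. For genes this short the density rests on few peaks and depends on gene length. Flanks held 55.9% of their 34 peaks and make up 62.1% of their length with flanks, against 67.6% of the peaks and 69.4% of the length of all single-exon coding genes. For the long members flanks held 4 of 47 peaks (8.51%) and make up 13.3% of the length. For all long multi-exon coding genes these shares were 11.8% and 11.0%. So the share of peaks in flanks lay below the share of length in both member classes, but not over all long genes. Flanks pooled over the 15 genes held 6.33 peaks per 100 kb, against 3.67 for all single-exon coding genes.

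**Figure D3:**
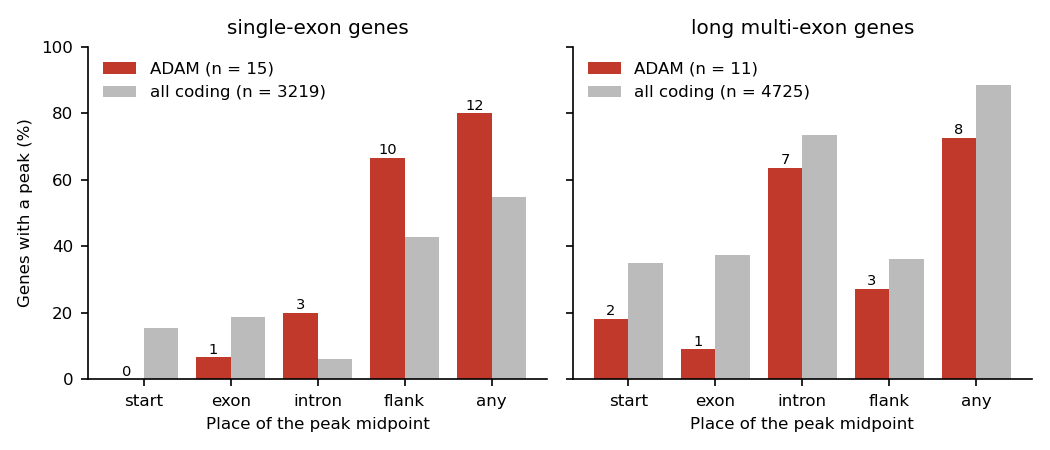
Percent of genes with an H1t peak midpoint (vertical axis) near the start, in an exon, in an intron, in the 10-kb flanks or anywhere in gene and flanks, for single-exon (left) and long multi-exon genes (right), with ADAM genes in red, their counts printed above, and all coding genes of that structure in grey. Flank peaks were present at 10 of 15 single-exon ADAM genes, against 42.7% of all single-exon coding genes. They were present at 3 of 11 long ADAM genes, against 36.2% of all long multi-exon coding genes.

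Adam34, Adam29 and Adam21 were the single-exon members with intron peaks, in the introns that part their non-coding 5′ exons from the coding exon. Adam34, called testase 4, had 9 intron and 3 flank peaks, 15.05 per 100 kb over 59.7 kb of gene and its flanks. Its strongest, at chr8:43685600-43687631, scored 299.57, and peaks covered 13.1% of the gene. Adam29 had 4 intron peaks with scores of 69.26, 139.06, 173.83 and 77.33, none in its flanks, and 13.2% of its 36.0 kb under peaks. Adam21 had 1 intron peak of score 79.04 and 4 downstream peaks with scores from 54.49 to 121.95, which gave 16.7 per 100 kb, the second highest density of the family. The annotated Adam34 gene is longer than its RefSeq record of 15.25 kb, which holds 4 of the 9 intron peaks, the strongest of score 130.96, and not the one of 299.57. Pooled over the single-exon members, introns held 10.2 peaks per 100 kb, against 2.29 in the introns of all single-exon coding genes, and 13 of these 14 peaks were in Adam34 and Adam29. The pooled value was 9.70 with Adam34 cut to its RefSeq record and 6.25 without Adam34.

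The coding exon of Adam34, shown here in part from chr8:43651461-43651610 on the minus strand, held no peak and has a coding GC content of 41.0%.
Adam34: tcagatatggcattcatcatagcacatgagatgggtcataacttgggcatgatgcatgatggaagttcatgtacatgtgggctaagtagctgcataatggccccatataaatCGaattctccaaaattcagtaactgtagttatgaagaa
This stretch holds 1 CG pair.

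The rest of the intronless testis members had flank peaks or none. Adam4 had 1 peak, of score 318.35 and the second strongest of the family, at chr12:81415907-81417754, inside the genes Cox16 and Gm20498. Adam6b had 3 downstream peaks scoring 60.48, 63.08 and 82.51, or 13.3 per 100 kb, and Adam6a had 1 of score 200.08. Adam25, Adam20 and Adam39 had 1 flank peak each, scoring 62.53, 50.68 and 64.96. Adam26b and Adam26a had 2 flank peaks each, with scores of 87.76 and 95.2 for Adam26b and 54.51 and 56.12 for Adam26a. Adam24 and Adam30 had none, and the nearest peak lay 9849 bp from Adam24, with its midpoint outside the flank, and 13579 bp from Adam30. The members with intron peaks were set apart above, and none of these 10 genes held a peak in its own body. Of all 13 intronless testis members, 3 (23.1%) had a body peak, near the 22.8% of single-exon coding genes.

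The sperm surface members of the fertilin type other than Adam1a and Adam1b are multi-exon genes, and each had at least 1 body peak. Adam5, a pseudogene in humans and a sperm gene in mice, had 13 intron peaks over 97.3 kb, the highest count of the family. Their scores ran from 53.31 to 184.39 with a median of 86.73, and they covered 12.7% of the gene. Intron density of Adam5 was 13.8 per 100 kb, above that of 99.6% of long multi-exon coding genes. Adam18 had 4 intron peaks scoring 187.16, 66.67, 97.24 and 50.21, at an intron density of 5.70 per 100 kb, above 92.7% of those genes. Adam32 had 3, of which one at chr8:24899510-24900365 scored 281.99, the fifth highest score of a member.

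Adam2, the fertilin beta gene, had 1 intron peak of score 121.22 and 1 downstream peak of score 51.35. Adam3, whose protein reaches the sperm surface with the help of testis chaperones, had 1 intron peak of score 57.31. The peak at the start of Adam18 also lay in its downstream flank. All 5 multi-exon members of this type had an intron peak, with from 1 to 13 peaks each. Adam3 is a short multi-exon gene and the others are long. An intron peak was present in 73.4% of long and 23.5% of short multi-exon coding genes.

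The sheddases ranged from no peak to 12.0 peaks per 100 kb in Adam33. The 8 members Adam8, Adam9, Adam10, Adam12, Adam15, Adam17, Adam19 and Adam33 had a median density of 1.77 per 100 kb, against 2.60 for all coding genes and 1.90 for long multi-exon ones. Of the 8, 4 lay above 2.60 and 3 had no peak. Adam9 over 67.3 kb, Adam19 over 91.4 kb and Adam8 over 13.6 kb were those without a peak in body or flanks. The nearest peak to Adam19, meltrin beta, was 41374 bp away, and the nearest to Adam9 was 21197 bp away. Adam10, which cuts Notch and the amyloid precursor protein, had 1 intron peak of score 85.16 in 101.2 kb. Adam17 had no body peak in 50.1 kb, and beside its start peak it had 1 downstream peak of score 55.02 that lies in Iah1.

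Adam12, the longest member, held 10 body peaks with scores from 51.81 to 284.75, the strongest in an intron at chr7:134106221-134107272. At 2.71 per 100 kb it was the median of the long members, and its intron density was above that of 68.8% of long multi-exon coding genes. Adam33 had 4 peaks, or 12.0 per 100 kb, with 13.9% of its 13.2 kb covered and a flank peak of score 168.33 that lies in Gfra4. Adam15 had 2, or 6.36 per 100 kb, its flank peak in Efna4.

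The 3 neural members ranged from the densest gene of the family to a gene with no peak. Adam11 had 7 peaks in body and flanks, 18.0 per 100 kb, the highest density of the family, and 16.95% of its 18.8 kb was covered, though no peak scored above 70.43. Adam22, the receptor for the secreted protein LGI1, had 11 intron peaks over 295.8 kb with scores from 52.44 to 186.83, an intron density of 3.91 per 100 kb that was above 84.55% of long multi-exon coding genes. Adam23, which also binds LGI1, had no peak over 150.4 kb, and the nearest lay 45724 bp away. Its upstream sequence has 27 CG pairs at 70.4% GC, close to that of Adam17, and had no peak.

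Both epididymis members lacked body peaks, and 43.0% of 12863 short multi-exon coding genes had one. Adam7 had none in 36.4 kb or in its flanks, although 5 peaks lay between it and Adam28, the last of them in the flank of Adam28. Adam28, in 49.8 kb, had 1 downstream peak at chr14:68598905-68600699 with a score of 334.16, the highest of any member, and 5328 bp from the gene.

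Among long members, 7 of 11 (63.6%) had a body peak, against 82.5% of long multi-exon coding genes, and 1 of 11 (9.09%) had an exon peak, against 37.3%. Body or flanks held a peak for 8 of 11 (72.7%), against 88.6%. Median density was 2.71 per 100 kb, against 1.90 for long multi-exon coding genes. It was 1.98 against 1.79 over the gene body alone, and 1.99 against 1.99 with flanks of 25 kb. The long members without a body peak were Adam23, Adam19, Adam9 and Adam17, of which Adam17 had flank peaks. In all, 7 of the 11 lay above the median density of long coding genes, and 3 had no peak at all. Without Adam5 the median of the other members was 2.49 per 100 kb.

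Neighbouring members within 100 kb of each other formed 6 groups. On chromosome 8, Adam18, Adam3, Adam5, Adam32 and Adam9 lie in a row over 414.7 kb on the minus strand. The row and its 10-kb flanks held 22 peaks, 21 inside members, which take 91.65% of it, at 5.06 per 100 kb, with 13 in Adam5 and 0 in Adam9. The single-exon genes Adam24, Adam25, Adam20 and Adam39 lie over 152.0 kb of the same chromosome. That stretch held 12 peaks at 6.98 per 100 kb, and none lay inside a member, with members taking 11.15% of the stretch and its flanks.

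Adam26b, Adam26a and Adam34 lie over 190.3 kb, further along chromosome 8. Members take 36.39% of this stretch with its flanks and held 34.6% of its peaks. There were 26 peaks at 12.4 per 100 kb, of which 9 were in Adam34 and 17 between or beside the genes. The strongest of these, at chr8:43589700-43592512, scored 340.55, between Adam26a and Adam34 and outside the 10-kb flanks of both. Adam6b and Adam6a, in the immunoglobulin heavy chain locus of chromosome 12, had 5 peaks around them and 0 inside. These genes take 6.63% of their stretch with its flanks. Adam7 and Adam28 had 5 around and 0 inside, and take 48.3% of their stretch with its flanks. Adam1b and Adam1a had 1 inside, and take 46.3% of theirs.

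**Figure D4:**
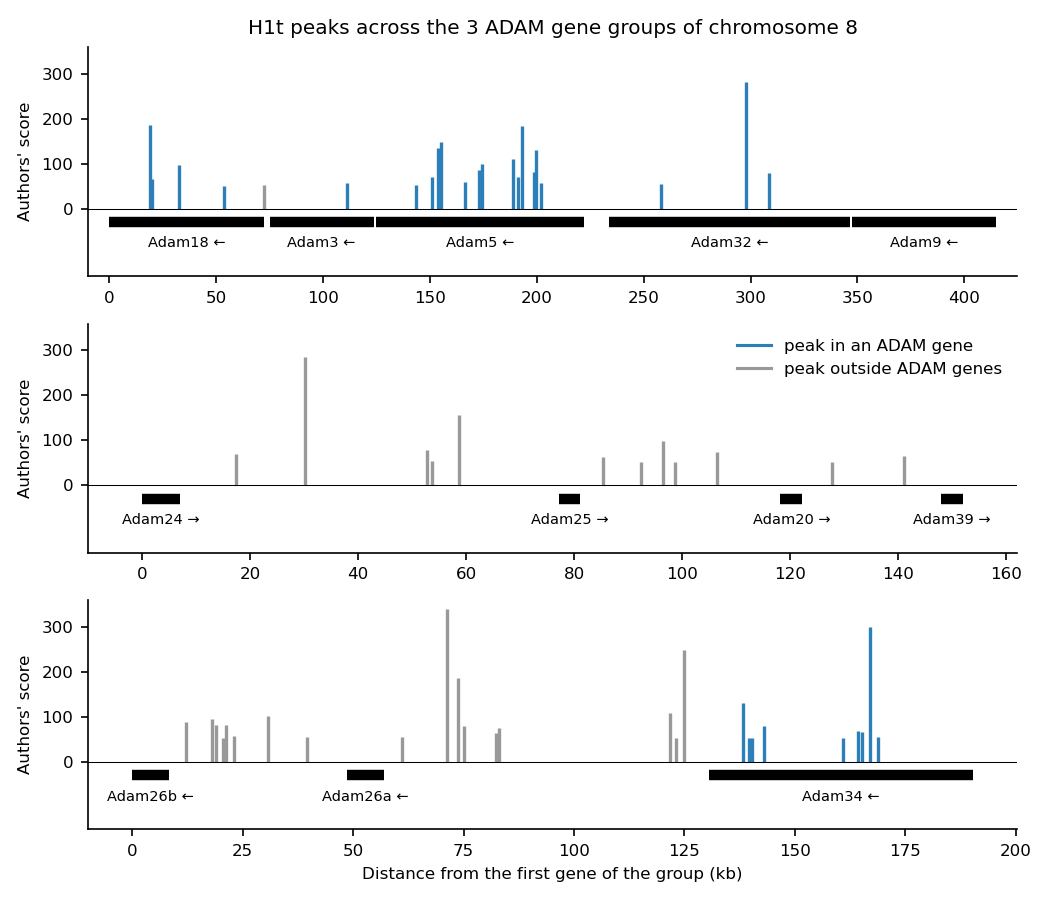
Authors' score (vertical axis) of each H1t peak against distance from the first gene of the group (horizontal axis, kb) for the 3 ADAM gene groups of chromosome 8. Bars are gene bodies, arrows give the strand, and blue and grey lines are peaks inside and outside ADAM genes. In the middle panel 0 of 12 peaks lie inside a gene, with genes taking 11.15% of the stretch with its flanks, and in the top panel 21 of 22 do, with genes taking 91.65%.

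Many of these neighbours are close copies. Coding identity between neighbours was 94.9% for Adam6b and Adam6a, 94.2% for Adam26b and Adam26a, 90.2% for Adam25 and Adam20, 89.7% for Adam20 and Adam39, and 89.6% for Adam26a and Adam34. Their longest identical coding stretches ran from 104 bases for Adam26a and Adam34 to 391 bases for Adam25 and Adam20. Other pairs shared less, with 58.75% for Adam3 and Adam5 and 67.4% for Adam24 and Adam25. No coding exon of Adam6a, Adam6b, Adam20, Adam25, Adam26a, Adam26b, Adam34 or Adam39 held a peak. All are single-exon genes of the lowest class of coding GC content. In that class 34 of 1208 single-exon coding genes (2.815%) had an exon peak. The loss of reads that match several copies was not tested.

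Genes that work with ADAM proteins were taken as lists from general knowledge. Of 16 genes for ADAM3 maturation and sperm-egg binding, 2 (12.5%) had a start peak, Cmtm2b and Spesp1, and 10 (62.5%) had a peak in body or flanks, with a median density of 2.585 per 100 kb. Over all coding genes these values were 24.2%, 69.9% and 2.596, so the list lay at or below them. Izumo1, the sperm protein that binds the egg, was the densest at 11.1 per 100 kb, followed by Cmtm2a at 9.33. Of 14 regulators of ADAM10 and ADAM17, 2 (14.3%) had a start peak, the inactive rhomboid gene Rhbdf1 and the inhibitor gene Timp3, against 24.2% of coding genes, and 12 (85.7%) had a peak in body or flanks, against 69.9%. The densest were Rhbdf2 at 16.4 and Rhbdf1 at 12.2 per 100 kb, whose products carry ADAM17 to the cell surface, and the median of the list was 3.71.

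Of 20 genes for substrates that ADAM sheddases release, 6 (30.0%) had a start peak and 15 a peak in body or flanks, with a median density of 3.53 per 100 kb. Both shares lay near the 24.2% and 69.9% of all coding genes. The start peaks were at Il6ra, Jag1, Notch2, Cdh2, App and Tgfa, and the densest genes were Notch1 at 7.62 and Dll1 at 6.775 per 100 kb. Of 5 partners of ADAM22 and ADAM23, 1 had a start peak, Lgi3, against 24.2% of all coding genes. An exon peak was present in 3 of the 5, against 28.8%, and a peak in body or flanks in 3, against 69.9%. With 5 genes these counts say little about a difference from all coding genes. Lgi4 was densest at 12.7 and Lgi3 next at 7.24 per 100 kb. The secreted relatives of the family were set beside it. Exon peaks were present in 5 of 33 ADAM members (15.2%) and in 19 of 24 Adamts and Adamtsl genes (79.2%). Start peaks were present in 3 of 33 (9.09%) and 11 of 24 (45.8%). The exon and start shares were 28.8% and 24.2% over all coding genes, and 37.3% and 35.0% over long multi-exon ones. The median coding GC content was 45.1% for the ADAM members and 57.1% for the Adamts and Adamtsl genes. Their median gene lengths were 26.9 kb and 95.2 kb. Whether GC content, gene length or exon structure has a part in the difference was not tested.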

How the data were processed

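H1t chromatin immunoprecipitation was sequenced in 1 library of spermatogenic cells, and 1 of the 2 libraries, the input, was not analysed here. Per the submitters' processing notes, the authors used Bowtie 1.1.2 and mm10. Not given in the sources used here are the caller of the peaks and its cutoff, the read depth and what was done with reads that match several positions. Each peak in the deposited file has a position and a score, the authors' own value for that peak, with no stated scale. It was used only to rank or filter peaks within the list, and since depth is unknown no counting interval is given.

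Peaks were placed by midpoint against GENCODE mouse release 21, counted from 1. Density is midpoints per 100 kb over the gene and 10 kb on each side. Exons are those of any transcript of a gene, introns the rest of its body. Members lie in a group where neighbours are within 100 kb. Promoter sequence came from RefSeq GRCm38.p6 and coding sequence from GENCODE transcripts.

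Full values are given for members with a start or exon peak, for the 5 with most body peaks, highest density, highest score or largest covered share, for members of at least 50 kb with no body peak, for the longest member, and for groups. From each list of other genes the 2 densest and those with a start peak are named. Genes named because a flank peak also lies in them were chosen after the values were seen. The members and lists were chosen with earlier results of these data known. The placement was tested on simulated peaks. Python 3.11.15, numpy 2.4.6, pandas 2.3.3 and matplotlib 3.10.9 were used.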

Additional observations from a re-analysis of the deposited data

How the results depend on the processing

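Each of 8 results was recomputed under 37 alternatives in all, and 22 stayed within the 95% Wilson binomial interval of a share or within 1.5 times a count or median. The interval is wide with 33 members, and it holds the share with a peak at any transcript start, 18.2% (6 of 33), against 9.09% from the annotated 5′ end. Keeping only peaks with a score at or above the median of the list, which leaves fewer peaks, moved the share of members with a start peak to 0.0%, against 10.98% of all coding genes, and the share with a peak in body or flanks to 51.5%, against 43.7%. Median density fell to 0.825 per 100 kb over all members, against 0.0 for all coding genes under the same filter. It was 0.0 for single-exon members and 0.0 for all single-exon coding genes. Long members had 1.27, against 0.857 for all long multi-exon coding genes. The filter left 3 exon, 32 intron and 12 flank peaks. Without flanks, 45.5% of members had a peak, against 48.9%, and median density was 0.0 over all members and 0.0 for single-exon members. It was also 0.0 for all coding genes and for all single-exon coding genes. With flanks of 25 kb, 93.9% had a peak, against 84.8%, and flank peaks numbered 85. The single-exon median with these flanks was 7.40, against 3.34 for all single-exon coding genes. For long members it was 1.99, against 1.99 for all long multi-exon coding genes. Counting any overlap of 1 bp gave 13 exon peaks. The RefSeq starts and gene records, the GENCODE basic transcripts and the values without Adam34 or Adam5 were alternatives chosen after seeing the data, and RefSeq starts gave a start peak at 4 of 33 members, against 23.7% of coding genes. No paired analysis was possible because 1 library has a peak list. Depth, copy number and the input signal were not analysed, so the absence of a peak means only that none was called.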

Other observations

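The side of the gene on which flank peaks lay was looked at after the values were seen. Of the 29 flank peaks of the members, 22 (75.9%) were downstream and 7 upstream, whereas 53.6% of the flank peaks of all coding genes were downstream. Single-exon members had 15 downstream and 4 upstream (78.9% downstream), against 48.1% for all single-exon coding genes. A downstream peak was present at 15 of 33 members and an upstream peak at 6, against 25.7% and 23.7% of all coding genes. The 15 single-exon members with their 19 flank peaks include 4 downstream of Adam21, 3 downstream of Adam6b and 3 downstream of Adam34, so few genes make up these counts. Members of a group lie close together, so their flank peaks are not independent of each other. No test was run.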
